A study of Mus musculus with 24 samples.

Results

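The gastrocnemius of Cmah KO mdx mice was compared with that of Cmah KO mice, a reading of what loss of dystrophin changes in a calf muscle that also lacks functional Cmah. The comparison used 6 of the 24 arrays of the series, chosen by tissue and genotype in the sample titles, with 3 Cmah KO mdx and 3 Cmah KO animals. The Cmah KO mdx mice carry the mdx allele of Dmd and the Cmah mutation and have the strain label C57BL6/10J. The Cmah KO mice carry the same Cmah mutation, described as human-like by the submitters, with dystrophin intact and the strain label C57BL/6J. All animals were males aged 2 months. Dystrophin loss and strain background therefore differ together, and their parts in any difference cannot be told apart. The same design with Cmah intact, mdx (C57BL6/10J) against WT (C57BL/6J), shares no array with this comparison, and hearts of the same animals were also measured.

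Dystrophin links the actin skeleton of a muscle fibre to the glycoprotein dystroglycan and, through it, to the laminin of the basement membrane. Fibres without it tear during contraction, die and are replaced by fusion of new myoblasts, in cycles that bring phagocytes, dividing cells and scar matrix into the muscle. The mdx mouse carries a nonsense mutation in Dmd and is widely used to study the human Duchenne disease. The Cmah gene encodes the hydroxylase that turns the sialic acid Neu5Ac into Neu5Gc; humans lack the enzyme, and mice without it carry Neu5Ac alone.

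Each animal gave 25 ng of total RNA per tissue, amplified and hybridised to 1 Affymetrix array, so 3 arrays a group limit the precision of every value below. The 6 arrays correlated between 0.882 and 0.964 over the probe sets tested, and no array was a copy of another. The label of the tissue held, since the 8 skeletal muscle markers (Acta1, Ckm, Myh4 and others) summed to between 16.26 and 16.39 log2 intensity in Cmah KO mdx muscle, against 16.17 to 16.49 in Cmah KO muscle. Replicate 1 of each group stood apart. Its Gapdh control probe sets differed between the 3' and 5' ends of the transcript by 0.97 (Cmah KO mdx) and 1.02 (Cmah KO) on the log2 scale, against 0.36 to 0.54 in the other 4 arrays, and a wide gap is a sign of shorter RNA or cDNA. The 6 cardiac markers, which define heart and not calf muscle, summed to 9.55 in Cmah KO mdx replicate 1 and 12.12 in Cmah KO replicate 1, against 6.56 to 7.07 in the other 4. Cmah KO replicate 3 held the highest lymphocyte signal, with a B cell sum of 9.50 and a T cell sum of 8.69, against 5.53 to 6.30 and 6.06 to 6.82 in the other 5 arrays. Fewer cells of a type and less RNA per cell cannot be told apart in such bulk samples.

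Of 29518 probe sets tested, 33 (0.112%) passed limma's test at a Benjamini-Hochberg adjusted p below 0.05, with 27 higher (0.0915%) and 6 lower (0.0203%) in Cmah KO mdx muscle. They named 30 genes, 24 higher and 6 lower; 2 probe sets, both higher, had no single gene symbol, and Dclk1 passed at a pair of probe sets. Read at the brightest probe set of each of 13224 genes, 25 passed (0.189%), with 21 higher (0.159%) and 4 lower (0.0302%). The higher set held developmental myosin, phagocyte and cell division genes, and the lower set held Dmd, Cdh4, Dusp26, Fut10, Gdap1 and 0610040J01Rik. In all 33 the arrays of the groups did not overlap, but the 33 were chosen on these same arrays, so this adds no support. Of all tested probe sets, 7.27% lay higher and 5.18% lower without overlap. At an unadjusted p below 0.05 there were 2292 (7.76%), with 1582 higher (5.36%) and 710 lower (2.41%), against 1476 that evenly spread p would give. The count depended on single arrays: it was 70 without Cmah KO mdx replicate 1, 3 and 2 without Cmah KO mdx replicates 2 and 3, and 6, 2 and 2 without Cmah KO replicates 1, 2 and 3. Cdh4 and Myh3 were the genes that kept their call in all 6 of these fits. The count was 11, with 7 of the 33 among them, without both replicate 1 arrays. The fit took its variance from all 12 gastrocnemius arrays. With the arrays of these groups alone 2 probe sets passed, with 1 of the 33 among them.

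**Figure D1:**
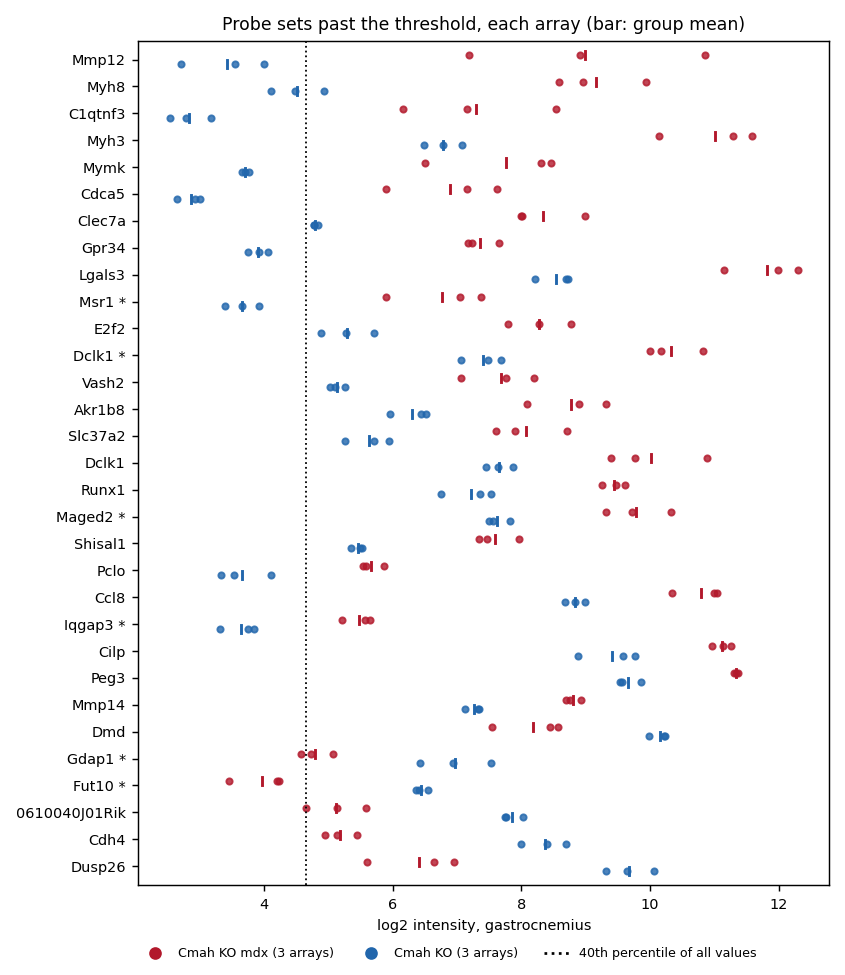
Log2 intensity of each probe set past the threshold that has 1 gene symbol, in the 3 Cmah KO mdx arrays (red) and the 3 Cmah KO arrays (blue), with the group mean as a bar; an asterisk marks a probe set that is not the brightest of its gene. The red and blue points do not overlap in any row, and 9 of the genes that were higher have a Cmah KO mean left of the dotted line at 4.66, the 40th percentile of all gastrocnemius values.

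Dmd, the targeted gene, read 8.57, 8.44 and 7.54 log2 intensity in the 3 Cmah KO mdx muscles, against 10.24, 9.99 and 10.22 in the 3 Cmah KO muscles, at its brightest probe set. All 3 mutant values lay below all 3 values with dystrophin intact, a fall by 1.96 ± 0.31 on the log2 scale (SE), or 3.90-fold lower (limma adjusted p = 0.0388). The call was kept without Cmah KO mdx replicate 1 and lost on leaving out any other array, with differences between -2.16 and -1.64 over these fits. The next brightest probe set, with 8.14, 8.23 and 7.49 against 9.52, 9.88 and 10.26, did not overlap either (-1.93 ± 0.34, adjusted p = 0.0640). The dimmer pair of Dmd probe sets read 0.25 and -0.44. Cmah, altered in both groups, read 8.11, 6.93 and 6.46 in Cmah KO mdx muscle, against 6.80, 6.55 and 5.73 in Cmah KO muscle, with overlap (0.81 ± 0.52, adjusted p = 0.871). Which of its probes lie in the altered part of the gene is not given in the sources used here, so this checks nothing.

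None of the other genes of the dystrophin axis passed. Of 20 tested genes for dystrophin's partners and its relative utrophin, 10 lay higher and 10 lower with a median of 0.01, against 0.02 over all 13224 genes tested, and Dmd alone passed the threshold. Utrn, whose protein can stand in for dystrophin at the membrane, read 11.37, 11.16 and 11.42 in Cmah KO mdx muscle, against 11.40, 11.47 and 11.28 in Cmah KO muscle (-0.07 ± 0.24). Nos1, the neuronal nitric oxide synthase that dystrophin anchors, read 7.56, 7.70 and 8.23 against 8.73, 9.63 and 9.81 in Cmah KO muscle, without overlap but short of the threshold (-1.56 ± 0.49, adjusted p = 0.316). Sntb1, a syntrophin, was the other gene of this group without overlap that lay higher (1.05 ± 0.50, adjusted p = 0.674). The enzymes that build the sugar chain of dystroglycan had a median of -0.16 over 11 tested genes, none of them without overlap.

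Developmental muscle genes held calls with some of the smallest p. Myh3, the embryonic myosin heavy chain, read 10.13, 11.59 and 11.29 log2 intensity in Cmah KO mdx muscle, against 7.07, 6.48 and 6.78 in Cmah KO muscle. It rose by 4.23 ± 0.40, or 18.7-fold (limma adjusted p = 0.00379), and stayed between 3.94 and 4.66 when any 1 array was left out. Myh8, the perinatal myosin heavy chain, read 8.58, 8.96 and 9.93 against 4.93, 4.48 and 4.10 in Cmah KO muscle and rose by 4.65 ± 0.53 (adjusted p = 0.0116). Its mean with dystrophin intact lay below the 40th percentile of all values, so no fold is given. Both genes lie in the cluster of muscle myosin heavy chains on chromosome 11, with 3 protein-coding genes between them. Mymk, which encodes myomaker, the membrane protein that lets myoblasts fuse, read 6.51, 8.46 and 8.31 against 3.77, 3.65 and 3.70, again from below the 40th percentile (4.05 ± 0.56, adjusted p = 0.0308). Runx1, a transcription factor induced in denervated and regenerating muscle, read 9.25, 9.61 and 9.48 against 7.53, 6.75 and 7.36 and rose by 2.23 ± 0.33, or 4.71-fold (adjusted p = 0.0339). Of its 6 tested probe sets 5 lay higher.

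The promoter sequences of Myh3 and Myh8, and of the cell cycle gene Cdca5 described further on, are shown because these genes, of new fibres and of dividing cells, were among the calls of their lists with the smallest p and had an entry in the promoter table. Each run gives the 250 bases before the annotated start of the gene in RefSeq on GRCm38.p6, 5′ to 3′ on the plus strand. The windows are chr11:67078050-67078299 for Myh3, chr11:67276874-67277123 for Myh8 and chr19:6084847-6085096 for Cdca5. Capitals mark CANNTG (the E-box read by MyoD and myogenin) in both myosins, and TTTGAA (the CHR element of cell cycle promoters) in Cdca5.
Myh3: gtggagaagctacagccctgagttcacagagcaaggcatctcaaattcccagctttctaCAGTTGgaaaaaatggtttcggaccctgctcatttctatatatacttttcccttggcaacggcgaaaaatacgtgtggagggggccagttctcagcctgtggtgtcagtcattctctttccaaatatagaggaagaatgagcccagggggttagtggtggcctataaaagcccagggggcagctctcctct
Myh8: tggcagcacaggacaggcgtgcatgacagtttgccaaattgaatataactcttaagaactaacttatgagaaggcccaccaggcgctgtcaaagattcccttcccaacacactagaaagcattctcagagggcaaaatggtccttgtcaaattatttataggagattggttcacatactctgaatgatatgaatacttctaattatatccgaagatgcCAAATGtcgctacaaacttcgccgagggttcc
Cdca5: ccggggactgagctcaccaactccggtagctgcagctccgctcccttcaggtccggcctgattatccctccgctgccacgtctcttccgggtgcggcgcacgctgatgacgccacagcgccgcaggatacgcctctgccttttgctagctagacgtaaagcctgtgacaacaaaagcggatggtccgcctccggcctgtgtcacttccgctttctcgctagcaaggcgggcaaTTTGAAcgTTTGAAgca
The Myh3 window held 1 E-box, 191 bases before the start, and the Myh8 window 1, 32 bases before it, and the Cdca5 window held none. CANNTG occurs in 66.2% of the 32851 promoters of the table in a window of the same length, counting both strands, so its presence is common. TTTGAA occurs in 16% and stood in Cdca5 in 2 copies, 17 and 9 bases before the start. Of the other motifs searched, CAGCTG (a form of CANNTG, 13% of promoters) was in none of the 3 windows, CCAAT (33.8%) was in Myh8 and GAGGAA, a core bound by PU.1 (23.3%), was in Myh3. Gpr34, Mymk and Msr1 were chosen by the same rule.

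As a group, 15 developmental contractile genes were tested, of which 2 passed, 10 lay higher and 7 did so without overlap, with a median of 1.40. Over all genes tested, 0.159% passed as higher, 52.2% lay higher and 9.84% did so without overlap. Myl4, the embryonic and atrial myosin light chain, read 11.66, 12.26 and 12.86 in Cmah KO mdx muscle, against 9.31, 10.47 and 9.73 in Cmah KO muscle (2.42 ± 0.41, adjusted p = 0.0543). Chrng, the fetal subunit of the acetylcholine receptor, read 7.24, 8.02 and 8.40 against 5.95, 5.13 and 5.21 (2.45 ± 0.44, adjusted p = 0.0665). Chrna1, the receptor's alpha subunit, and Ncam1, an adhesion molecule of new and denervated fibres, lay 2.09 and 1.37 higher without overlap. Values of this list tracked heart signal in 1 member: Tnnt2, the cardiac and embryonic troponin T, read 11.60, 11.14 and 10.29 against 11.00, 6.40 and 6.39, where the high Cmah KO value is replicate 1, the array with the highest cardiac markers. The part of that signal in the list was not tested.

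Among 12 tested fusion genes Mymk passed and the median was 0.34. Mymx, which encodes myomixer, the partner of myomaker in fusion, read 9.39, 11.32 and 10.59 in Cmah KO mdx muscle, against 7.41, 4.25 and 3.05 in Cmah KO muscle (5.53 ± 1.01, adjusted p = 0.0684). The groups did not overlap, and the highest Cmah KO value was again replicate 1. Of 21 satellite cell and myogenic genes, Runx1 passed, 16 lay higher and 7 did so without overlap, with a median of 0.30. Over all genes tested, 52.2% lay higher and 9.84% did so without overlap. Myog, the myogenin of differentiating myoblasts, read 9.81, 11.43 and 11.37 against 7.36, 9.38 and 9.72 (2.05 ± 0.71, adjusted p = 0.419). Igf2, a growth factor of regenerating fibres, lay 2.82 ± 0.66 higher (adjusted p = 0.156), Megf10, a receptor of satellite cells, 1.52 ± 0.48 higher and Cdkn1c, a cell cycle inhibitor, 1.20 ± 0.37 higher, all 3 without overlap. Of 19 genes of the neuromuscular junction and of denervation, Runx1 passed, 16 lay higher and 9 did so without overlap (median 0.66). Sln, which encodes the calcium pump inhibitor sarcolipin, lay 2.01 ± 0.60 higher (adjusted p = 0.282). The contractile genes of mature fibres were level: the median was -0.01 over 16 fast fibre genes and 0.00 over 15 slow fibre genes, with no call in either list.

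**Figure D2:**
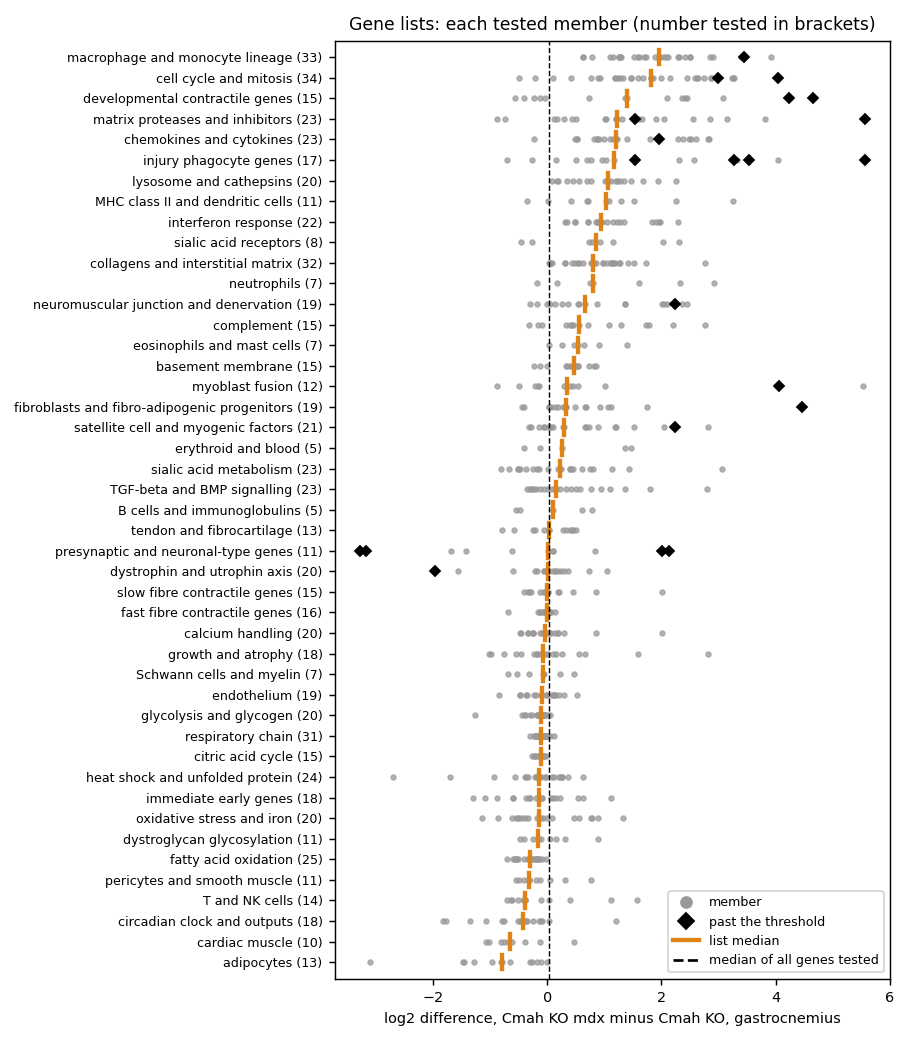
Log2 difference (Cmah KO mdx minus Cmah KO, gastrocnemius) of each tested member of 45 gene lists, ordered by list median; orange bars are list medians, black diamonds are members past the threshold and the dashed line is the median of all genes tested (0.02). Macrophage, cell cycle and developmental contractile genes have the highest medians (1.95, 1.82 and 1.40) and adipocyte genes the lowest (-0.79).

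Genes of dividing cells lay higher nearly throughout. Of 34 tested cell cycle and mitosis genes 32 lay higher, 26 of them without overlap, with a median of 1.82, and 2 passed the threshold. Over all genes tested, 52.2% lay higher, 9.84% did so without overlap and 0.159% passed as higher. Cdca5, the sororin that holds sister chromatids together, read 7.62, 7.15 and 5.89 log2 intensity in Cmah KO mdx muscle, against 2.65, 2.99 and 2.92 in Cmah KO muscle (4.03 ± 0.55, limma adjusted p = 0.0297). Its other probe set, too dim to be tested, overlapped between the groups (3.81, 4.66 and 3.21 against 3.60, 2.86 and 2.90). E2f2, a transcription factor of the entry into DNA synthesis, read 8.78, 7.79 and 8.27 against 4.89, 5.70 and 5.27 and rose by 2.99 ± 0.46, or 7.97-fold (adjusted p = 0.0386). Outside that list Iqgap3, a scaffold protein of proliferating cells, passed at one of its dimmer probe sets (5.57, 5.64 and 5.21 against 3.83, 3.75 and 3.32), while its brightest probe set read -0.11. Short of the threshold, Ccna2 (cyclin A2), Prc1 and Birc5 (both of the dividing spindle) and Bub1 (its checkpoint) lay 3.25, 3.27, 3.24 and 2.97 higher, each without overlap, with adjusted p between 0.0673 and 0.109. Of these 34 genes 10 had a Cmah KO mean below the 40th percentile, so that they entered the test through the arrays in which they were high, and counts over the list are given as description.

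Phagocyte genes were the other large group. All 33 tested genes of the macrophage and monocyte lineage lay higher, 24 without overlap, with a median of 1.95, and Gpr34 passed. The shares over all genes tested were 52.2% higher, 9.84% higher without overlap and 0.159% passing as higher. Gpr34, a lysophospholipid receptor of macrophages and microglia, read 7.23, 7.66 and 7.17 in Cmah KO mdx muscle, against 3.75, 3.92 and 4.06 in Cmah KO muscle (3.44 ± 0.44, limma adjusted p = 0.0211). Ms4a7, Mpeg1 (a pore protein of phagocytes) and Ccr2 (the chemokine receptor of inflammatory monocytes) lay 3.91 ± 0.65, 3.38 ± 0.61 and 2.50 ± 0.48 higher with adjusted p of 0.0543, 0.0665 and 0.0788. The summed intensity of the 8 macrophage markers was 12.84, 13.98 and 13.45 log2 units in Cmah KO mdx muscle, against 11.61, 11.57 and 11.55 in Cmah KO muscle. Of these markers 7 were tested, and all 7 lay higher without a call, while Itgam was too dim in both groups to be tested. In the summed intensity Cmah KO mdx replicate 1, the lowest of its group, was above all Cmah KO arrays.

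Among genes of phagocytes that clear injured tissue, 17 were tested and 15 lay higher (median 1.17), against 52.2% of all genes tested. Lgals3, Clec7a, Mmp12 and Mmp14 passed, where 0.159% of all genes tested passed as higher. Mmp12 and Mmp14 are also in the protease list. Lgals3, or galectin-3, a lectin that phagocytes secrete, read 11.16, 12.30 and 11.99 in Cmah KO mdx muscle, against 8.22, 8.70 and 8.72 in Cmah KO muscle, and rose by 3.27 ± 0.51, or 9.65-fold (adjusted p = 0.0408). Clec7a, the fungal glucan receptor dectin-1, read 8.00, 8.99 and 8.00 against 4.84, 4.77 and 4.77 and rose by 3.54 ± 0.55, or 11.6-fold (adjusted p = 0.0388). Mmp12, the macrophage elastase, gave the widest difference of all calls, with 7.18, 10.85 and 8.91 against 2.71, 3.55 and 4.00 (5.56 ± 0.85, adjusted p = 0.0386). Its mutant values spread widely, and its Cmah KO values lay near the bottom of the scale. Msr1, a scavenger receptor, passed at one of its dimmer probe sets (5.89, 7.38 and 7.05 against 3.39, 3.92 and 3.66), and its brightest lay 2.31 ± 0.62 higher (adjusted p = 0.226). Gpnmb, Atp6v0d2 and Trem2, which mark phagocytes loaded with debris and lipid, lay 3.32, 4.04 and 2.58 higher without overlap, with adjusted p of 0.0543, 0.0937 and 0.155. Outside the list Slc37a2, a sugar phosphate transporter of macrophages, passed as well, with 7.90, 8.71 and 7.61 against 5.95, 5.26 and 5.70 (2.44 ± 0.34, adjusted p = 0.0308).

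Other immune groups had 1 call in all. It was Ccl8, a chemokine for monocytes, which read 10.35, 11.04 and 11.00 in Cmah KO mdx muscle, against 8.99, 8.67 and 8.84 in Cmah KO muscle, and rose by 1.96 ± 0.31, or 3.89-fold (limma adjusted p = 0.0388). Of 23 tested chemokines and cytokines 22 lay higher, 12 without overlap (median 1.21), among them Il1rn, the interleukin-1 antagonist, at 2.83 ± 0.67 and Ccl3 at 2.61 ± 0.71. Of these 23 genes 8 had a Cmah KO mean below the 40th percentile, as did 4 of the 33 macrophage genes and 4 of the 23 proteases, so these counts too are description. All 20 tested lysosomal genes lay higher (median 1.06), among them Grn (1.67 ± 0.35, adjusted p = 0.104) and Ctss (2.25 ± 0.48, adjusted p = 0.114). All 22 interferon response genes lay higher (median 0.95), with Oas1a at 1.90 ± 0.47, and 10 of 11 genes of MHC class II and dendritic cells did (median 1.02), with the integrin Itgax at 3.25 ± 0.62 (adjusted p = 0.0788). Of 15 complement genes 12 lay higher (median 0.56), with the receptor C3ar1 at 2.77 ± 0.54 (adjusted p = 0.0877). Beside these lists, 52.2% of all genes tested lay higher and 9.84% did so without overlap.

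For lymphocytes the direction of the median depended on single arrays. The median was -0.39 over 14 T and NK cell genes and 0.10 over 5 B cell genes, and it was 0.28 and 0.58 without Cmah KO replicate 3, the array with the highest sums of both kinds of marker. Without Cmah KO mdx replicate 1 the medians were 0.04 and -0.20, and without Cmah KO replicate 2 the B cell median was -0.22. By array the T and NK cell list deviated by -0.29, 0.10 and 0.08 in Cmah KO mdx muscle, against -0.41, -0.41 and 0.62 in Cmah KO muscle. Among 7 neutrophil genes the calgranulin S100a8 read 7.57, 8.62 and 8.60 in Cmah KO mdx muscle, against 4.58, 4.79 and 6.68 in Cmah KO muscle (2.91 ± 1.13, adjusted p = 0.520). The highest Cmah KO value was again replicate 3.

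Matrix genes lay higher as well, with calls among the enzymes that cut it. Of 23 matrix proteases and inhibitors, Mmp12 and Mmp14 passed and 21 lay higher, 14 without overlap (median 1.23). Mmp14, a membrane-bound collagenase, read 8.76, 8.70 and 8.93 in Cmah KO mdx muscle, against 7.34, 7.12 and 7.32 in Cmah KO muscle, with little spread in either group, and rose by 1.54 ± 0.24, or 2.90-fold (limma adjusted p = 0.0386). Timp1, an inhibitor of these proteases, lay 3.82 ± 0.73 higher (adjusted p = 0.0788), and Adam12, a protease of regenerating muscle, 2.85 ± 0.63 higher. All 32 tested collagen and interstitial matrix genes lay higher, 13 without overlap (median 0.81), and none passed. Beside both lists, 52.2% of all genes tested lay higher, 9.84% did so without overlap and 0.159% passed as higher. Postn, or periostin, lay 2.76 ± 0.72 higher and Col5a2, a fibrillar collagen, 1.52 ± 0.35 higher, with adjusted p of 0.217 and 0.155.

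Of 19 fibroblast genes 17 lay higher, against 52.2% of all genes tested, with a smaller median of 0.33. C1qtnf3, a secreted protein of the C1q and TNF family, passed with 6.16, 8.54 and 7.16 in Cmah KO mdx muscle, against 2.53, 3.18 and 2.78 in Cmah KO muscle (4.46 ± 0.56, adjusted p = 0.0209). Outside the list Cilp, a matrix protein of cartilage and fibrotic tissue, read 11.25, 11.14 and 10.97 against 9.57, 9.76 and 8.88 and rose by 1.71 ± 0.27, or 3.28-fold (adjusted p = 0.0421). The fibroblast marker Pdgfra lay 0.67 ± 0.28 higher (adjusted p = 0.576). Endothelial genes were level (median -0.09 over 19).

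**Figure D3:**
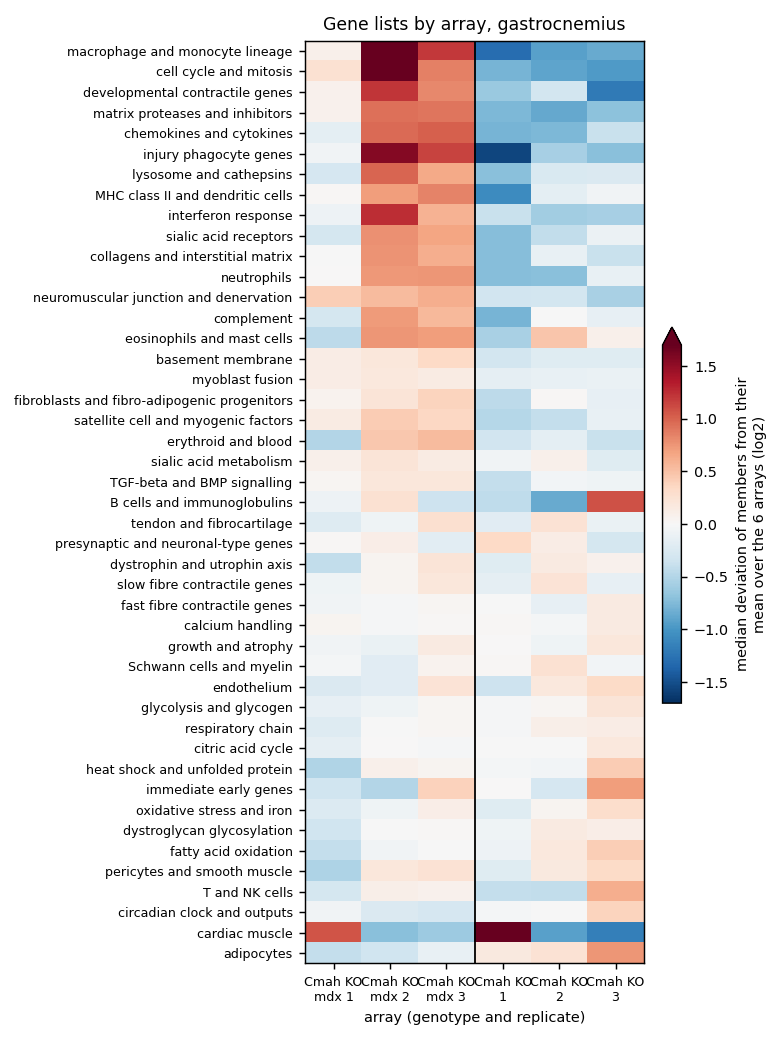
Each cell gives the median, over a list's tested members, of the log2 deviation from the member's mean over the 6 arrays, for 3 Cmah KO mdx arrays (left of the line) and 3 Cmah KO arrays (right). The macrophage, injury phagocyte, interferon, collagen and protease lists are reddest in Cmah KO mdx replicates 2 and 3 and lie between -0.08 and 0.09 in replicate 1, the T and NK cell and B cell lists are reddest in Cmah KO replicate 3 (0.62 and 1.08), and the cardiac list is red in both replicate 1 arrays; the scale ends at 1.7.

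Seen by array, the median deviation of a list separated the groups upward in 16 of the 45 lists and downward in 2, adipocytes and circadian genes, and overlapped in 27. Cell cycle genes deviated by 0.26, 1.69 and 0.85 in the 3 Cmah KO mdx arrays, against -0.79, -0.90 and -0.96 in the Cmah KO arrays. Macrophage genes deviated by 0.09, 1.69 and 1.21 against -1.29, -0.92 and -0.86. In both lists Cmah KO mdx replicate 1 was the nearest to the Cmah KO arrays, and it is the array of that group with the wide Gapdh gap and the raised cardiac signal. Junction and denervation genes separated the groups in every array by a similar amount (0.42, 0.54 and 0.62 against -0.33, -0.31 and -0.55).

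Genes expressed in neurons as well as muscle moved in both directions. Of 11 tested genes of presynaptic and neuronal type 2 passed as higher and 2 as lower, and the median was 0.01. Over all genes tested, 0.159% passed as higher and 0.0302% as lower. In this list 3 genes had a Cmah KO mean below the 40th percentile. The list was written with earlier results of these data known, so its counts are description. Cdh4, or R-cadherin, an adhesion molecule, had the smallest p of the comparison: it read 5.14, 4.95 and 5.45 log2 intensity in Cmah KO mdx muscle, against 8.70, 7.99 and 8.39 in Cmah KO muscle. It fell by 3.18 ± 0.27, or 9.09-fold lower (limma adjusted p = 0.00215), and its other probe sets lay lower too (-2.11 and -1.10). Dusp26, a phosphatase of neural and muscle tissue, read 6.95, 5.60 and 6.64 against 9.32, 10.06 and 9.64 and fell by 3.27 ± 0.40, or 9.67-fold lower (adjusted p = 0.0185). Pclo, which encodes the presynaptic scaffold piccolo, read 5.54, 5.59 and 5.86 against 4.10, 3.54 and 3.32 (2.01 ± 0.29, adjusted p = 0.0315), from a Cmah KO mean below the 40th percentile. Shisal1 read 7.47, 7.34 and 7.96 against 5.35, 5.49 and 5.52 (2.14 ± 0.34, adjusted p = 0.0408), with its second probe set 2.83 higher. Of genes outside this list, Dclk1, a microtubule-associated kinase of neurons and stem-like cells, lay higher at all 8 of its tested probe sets, by 1.49 to 3.00, and passed at 2 of them. Its brightest read 9.76, 10.89 and 9.40 in Cmah KO mdx muscle, against 7.86, 7.64 and 7.45 in Cmah KO muscle (2.36 ± 0.36, adjusted p = 0.0376). Gdap1, a protein of the outer mitochondrial membrane, passed as lower at one of its dimmer probe sets (4.58, 5.07 and 4.73 against 6.94, 6.43 and 7.53), and its brightest read -1.42 ± 0.73 (adjusted p = 0.732).

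The remaining calls with a symbol are in none of the lists. Akr1b8, an aldo-keto reductase, read 8.09, 9.31 and 8.89 in Cmah KO mdx muscle, against 5.96, 6.52 and 6.43 in Cmah KO muscle and rose 5.50-fold (2.46 ± 0.32, limma adjusted p = 0.0240). Vash2, a vasohibin that trims tubulin, read 7.06, 8.20 and 7.77 against 5.25, 5.02 and 5.10 and rose 5.86-fold (adjusted p = 0.0308). Peg3, an imprinted zinc finger gene expressed in muscle stem cells, read 11.36, 11.34 and 11.31 against 9.86, 9.56 and 9.53 and rose by 1.69 ± 0.27 ( adjusted p = 0.0408). Maged2, of the MAGE family, passed at one of its dimmer probe sets (9.32, 9.72 and 10.32 against 7.55, 7.49 and 7.82), while its brightest overlapped between the groups (0.96 ± 0.71). 0610040J01Rik, a gene with no assigned role, read 4.65, 5.58 and 5.13 against 7.75, 8.02 and 7.77 and fell by 2.73 ± 0.29, or 6.62-fold lower (adjusted p = 0.0091). Its call held in 3 of the 6 fits that leave out 1 array, against 2 of 6 for Myh8 and Dusp26.

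Fut10, a member of the fucosyltransferase family, passed at one of its dimmer probe sets: 3.45, 4.21 and 4.23 in Cmah KO mdx muscle, against 6.40, 6.54 and 6.36 in Cmah KO muscle, a fall by 2.47 ± 0.30 (limma adjusted p = 0.0185). Its mutant mean lay below the 40th percentile of all values. The brightest probe set read 6.07, 4.58 and 4.86 against 8.07, 7.18 and 7.32 (-2.35 ± 0.43, adjusted p = 0.0673), and the remaining one read -0.22. Fut10 and Dusp26 are near neighbours on chromosome 8, with 3 protein-coding genes between them (gene order from GRCm38.p6). None of the 3 genes between them passed: at their brightest probe sets Rnf122 read 0.57 ± 0.54, Tti2 0.15 ± 0.32 and Mak16 0.42 ± 0.31. A dimmer probe set of Tti2 lay 1.34 ± 0.42 higher without overlap (limma adjusted p = 0.331). That probe set read -0.34 ± 0.42 in mdx minus WT muscle. In mdx against WT muscle Dusp26 read -2.81 ± 0.40 without overlap (adjusted p = 0.0541), and Fut10 at the probe set that passed overlapped there (-0.26 ± 0.30).

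**Figure D4:**
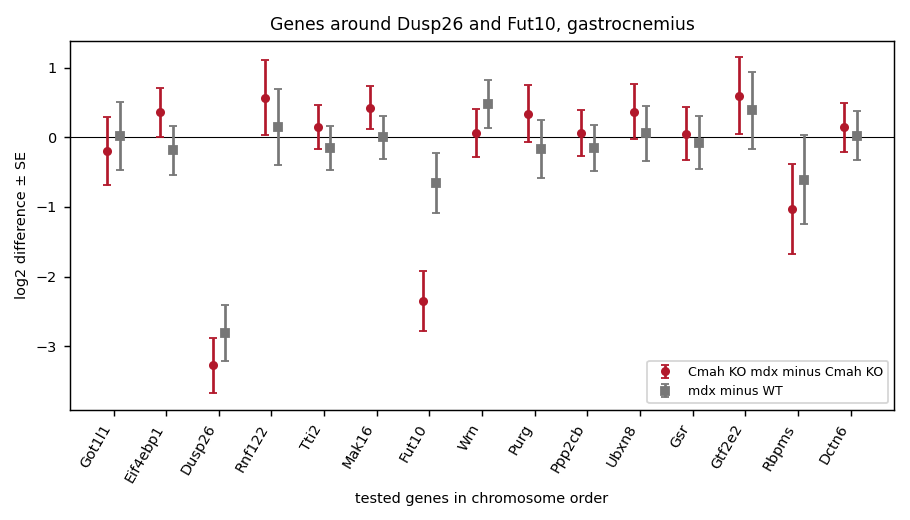
Log2 difference with its standard error at the brightest probe set of each tested gene within 12 protein-coding genes of Fut10 on chromosome 8, in chromosome order, for Cmah KO mdx minus Cmah KO (red circles) and mdx minus WT (grey squares), 3 arrays a group. Dusp26 lies low in both comparisons (-3.27 and -2.81), Fut10 lies at -2.35 and -0.65, and the genes between them lie within 0.57 of 0.

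Fat cell and fuel genes lay on the lower side without a call. All 13 tested adipocyte genes lay lower, 5 without overlap, with a median of -0.79. Over all 13224 genes tested, 6319 lay lower and 5.09% did so without overlap. Adipoq, or adiponectin, read 8.54, 9.06 and 9.69 in Cmah KO mdx muscle, against 10.12, 10.60 and 10.94 in Cmah KO muscle (-1.45 ± 0.72, limma adjusted p = 0.709). Retn, or resistin, read -1.47 ± 0.57 and Pck1, an enzyme of glycerol and glucose synthesis, read -3.10 ± 0.87 (adjusted p = 0.243), both without overlap. All 25 genes of fatty acid oxidation and uptake lay lower with a small median of -0.30, and all 15 citric acid cycle genes with one of -0.12. The fatty acid transporter Cd36 read 10.56, 10.19 and 9.95 against 11.34, 10.64 and 10.85 (-0.71 ± 0.30, adjusted p = 0.595).

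Of 18 circadian genes 16 lay lower, 2 of them without overlap (median -0.42). Over all 13224 genes tested, 6319 lay lower and 5.09% did so without overlap. In mdx against WT muscle the median of this list was -0.04. Hlf, a clock-driven transcription factor, read 7.10, 6.27 and 6.40 in Cmah KO mdx muscle, against 8.35, 8.30 and 8.45 in Cmah KO muscle (-1.78 ± 0.37, adjusted p = 0.0995), and Ciart, a repressor of the clock, did not overlap either (-1.82 ± 0.49, adjusted p = 0.230). Time of collection is not given in the sources used here. The heat shock genes Hspa1a and Hspa1b, near-identical copies whose probes may share signal, read -2.70 ± 0.63 and -1.71 ± 0.42 without overlap (adjusted p of 0.156 and 0.176), within a list whose median was -0.14 over 24 genes.

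Genes of sialic acid biology were read because both groups lack functional Cmah. Of 23 tested genes of sialic acid synthesis, transfer and removal 14 lay higher (60.9%), 4 of them without overlap, and none passed (median 0.22). Of all 13224 genes tested 6905 (52.2%) lay higher, and 9.84% did so without overlap. St8sia2, which builds polysialic acid on the adhesion molecule encoded by Ncam1, read 6.10, 7.08 and 6.53 in Cmah KO mdx muscle, against 3.84, 3.64 and 3.06 in Cmah KO muscle (3.06 ± 0.51, limma adjusted p = 0.0543). Slc17a5, the lysosomal sialic acid exporter, and Npl, which breaks sialic acid down, lay 0.75 ± 0.27 and 1.43 ± 0.53 higher. Of 8 genes for sialic acid receptors and their partners 6 lay higher (median 0.85), with the signalling adaptor Tyrobp of phagocytes at 2.32 ± 0.50 (adjusted p = 0.123) and the sialoadhesin Siglec1 at 1.15 ± 0.48 (adjusted p = 0.585). A Cmah KO mean below the percentile used to pick probe sets for the test was found for 3 of these 8 genes. That share was 37.5%, against 6.27% of all genes tested, so the count for these receptors is description. Macrophages are among the cells that express such receptors, and the macrophage markers were higher in the same arrays; their part in these values was not tested.

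The calls were then read in the muscles with Cmah intact, whose arrays gave none of the values compared above but shared the variance estimate of the fit. Of the 27 probe sets that were higher in Cmah KO mdx muscle, 26 were higher in mdx than in WT muscle without overlap, where 3.54% of all tested probe sets were. Clec7a was the exception, at 8.43, 8.14 and 6.83 in mdx muscle, against 7.06, 5.37 and 5.03 in WT muscle. Of the 6 that were lower, 5 were lower in mdx muscle without overlap, where 2.75% of all were, and Fut10 was the exception. These mdx and WT groups differ in strain label in the same way.

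Myh3, Myh8, Pclo and Cdh4 also passed the threshold in mdx against WT muscle, 4 of the 5 probe sets (0.0169%) that did. The differences in size between the 2 backgrounds were tested directly, and no probe set passed limma's interaction test at an adjusted p below 0.05, with 311 (1.05%) at an unadjusted p below 0.05. The 3 smallest p, at an adjusted p of 1.00 each, included a dimmer probe set of Uqcr10, a subunit of respiratory complex III (interaction -5.02 ± 0.77). The others were a probe set without a single gene symbol (-3.51 ± 0.67) and the called, dimmer probe set of Fut10 (-2.21 ± 0.43). That Uqcr10 probe set read 4.24, 4.02 and 4.49 in Cmah KO mdx muscle, against 4.16, 5.57 and 3.45 in Cmah KO muscle, and differed by 4.88 in mdx minus WT muscle. The cell cycle list had a median of 1.82 here and 0.69 in mdx against WT, and the macrophage list 1.95 and 1.27, differences that were not tested at the level of lists.

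In the hearts of the same animals no probe set passed in Cmah KO mdx against Cmah KO (limma, 29421 tested), with 568 (1.93%) at an unadjusted p below 0.05. Cmah KO mdx replicate 2 and Cmah KO replicate 3 stood apart in heart, with Gapdh gaps of 4.43 and 4.29 on the log2 scale. Of the calls in gastrocnemius, 26 could be tested in heart, and their heart differences lay between -1.25 and 1.67, or between -1.48 and 0.64 without these 2 heart arrays. None of the 20 that were higher in gastrocnemius was higher in heart without overlap (2.07% of all were), and 1 of the 6 that were lower was lower there (1.49% of all). Dmd read -0.73 in heart, and -1.39 without the 2 arrays. The smallest p in heart fell to Cpxm2, a carboxypeptidase-like matrix protein (-2.93 ± 0.63), Sprr1a, a stress-induced gene (-1.97 ± 0.44), and a dimmer probe set of Hspa1b (-3.13 ± 0.71), each at an adjusted p of 0.841.

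The difference between the tissues itself was fitted over all 24 arrays with the animal as a random block. It passed at 17 of 29518 probe sets (0.0576%), all with a more positive change in gastrocnemius than in heart, and 8 of them were calls of the gastrocnemius comparison. The count was 0 without the animal block and 1 over probe sets that pass the filter in both tissues. Of the 17, 8 were too dim in heart to be tested there, and 6 had both heart means below 4.78, the 40th percentile in heart. Myh3, Mymk and Mymx of new fibres, Mmp12, Clec7a and Timp1 of phagocytes and matrix, and St8sia2 were among the 15 genes. Myh3 rose by 4.23 in gastrocnemius and read 0.75 in heart, a difference of 3.47 ± 0.53 (limma adjusted p = 0.0221). The count was 64 without the gastrocnemius array of Cmah KO mdx replicate 1 and 0 without either other gastrocnemius array of that group. It was 2, 3 and 0 without the gastrocnemius arrays of Cmah KO replicates 1, 2 and 3. Heart arrays were not left out singly. Without the heart arrays that stand apart the count was 16, with 7 of the 17 among them.

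**Figure D5:**
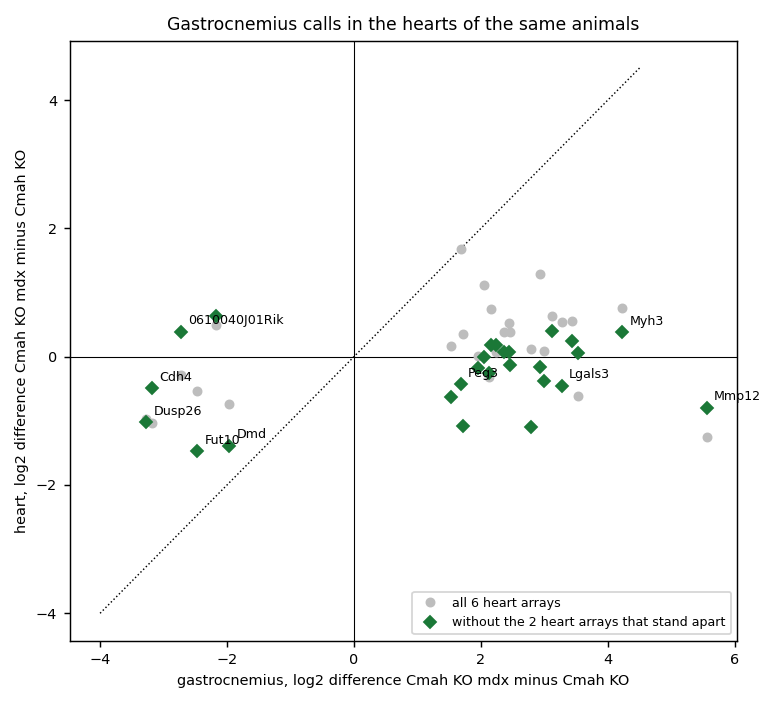
Log2 difference (Cmah KO mdx minus Cmah KO) in gastrocnemius (horizontal axis) and heart (vertical axis) of the 26 probe sets past the threshold in gastrocnemius that were also tested in heart, with all 6 heart arrays (grey circles) and without the 2 that stand apart (green diamonds); the dotted line marks equal differences. Without those arrays the heart values lie between -1.48 and 0.64, while the gastrocnemius values reach from -3.27 to 5.56.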

How the data were processed

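The authors deposited linear intensity values for 45101 probe sets on 24 Affymetrix arrays; per the submitters' processing notes GCOS and RMA were used, with no version given. The 64 control probe sets were left out and log2 taken. Probe sets above the 40th percentile (4.66 log2 in gastrocnemius) on 3 or more of the 12 arrays of a tissue entered the test. Group means of all 4 genotypes were fitted with limma 3.58.1 (R 4.3.3, lmFit, eBayes, two-sided), with Benjamini-Hochberg adjustment below 0.05. The tissue difference used duplicateCorrelation with the animal as block (consensus correlation 0.216). The fit was tested on simulated data.

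Symbols came from the platform annotation (1 for 34945 probe sets, several for 932, none for 9160), and 34741 matched the gene table of GRCm38.p6, also used for gene order. Genes were read at the brightest probe set. Of 6 genes chosen for promoters 3 matched.

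Named were Dmd, Cmah, Utrn, every gene past the threshold and up to 4 others a list by smallest p, not all printed, with up to 10 genes or the 3 smallest p for the other comparisons (all for the tissue difference). The chromosome neighbours of Fut10 were chosen after its values were seen. The comparison, the 45 lists (909 of 910 entries matched) and the tests were chosen with earlier results of these data known, so lists are described by counts. Each of the 12 animals gave 1 array a tissue.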

Additional observations from a re-analysis of the deposited data

Results flagged for a closer look

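Differences between the tissues were tested (limma, Cmah KO mdx minus Cmah KO in gastrocnemius, minus the same in heart), and these values passed at an adjusted p between 0.0221 and 0.0430. Of these 17, 8 were not tested in heart for low values (Mymk, Mymx, C1qtnf3, Kcne1l, Capn6, Vash2, St8sia2 and Pclo), so their sizes rest on dim heart values: Mymx averaged 2.67 in Cmah KO mdx hearts and 2.92 in Cmah KO hearts. In 16 the value exceeded the gastrocnemius difference alone (5.76 against 4.46 for C1qtnf3), since the heart difference was below 0. Muscle and fusion genes gave 3.47 for Myh3, 4.32 for Mymk and 5.78 for Mymx. Phagocyte and matrix genes gave 6.81 for Mmp12, 4.15 for Clec7a, 4.80 for Timp1 and 3.02 for the inhibitory receptor Cd300a. The secreted C1qtnf3 gave 5.76, the sialyltransferase St8sia2 gave 3.80 and the vasohibin Vash2 gave 3.45. Among genes of neuronal type, Pclo gave 2.44 and Shisal1 gave 2.45, and 3.65 at another probe set. Kcne1l, a potassium channel subunit, gave 4.25, Capn6, a calpain family member, 2.92, Fignl1, a DNA repair ATPase, 3.94, and a probe set without a single gene symbol 2.73.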

How the results depend on the processing

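The count of 33 probe sets was 539 with array weights, 153 with the Gapdh gap as a covariate and 71 with both tissues in the fit. With these groups alone it was 2, with 1 of the 33 among them. It was 11 without both replicate 1 arrays (an alternative chosen after seeing the data) and 2 to 70 without each array in turn. It was 33 to 44 under the filters, the quantile scaling, log2(value + 16) and the trend and robust variance. With the replicate block it was 34, with 23 of the 33 among them. Deviations of same-numbered arrays correlated at 0.597, -0.144 and 0.175, and those of unlike-numbered arrays at -0.644 to 0.570. With 3 arrays a group such values cannot show whether the numbers pair the animals. Dmd read -1.96 in 3 fits that lost its call, with these groups alone, with the replicate block (adjusted p = 0.0527) and with both tissues, and -2.11 without both replicate 1 arrays; over all its fits adjusted p ran from 0.00517 to 0.184, with values of -2.16 to -1.64 without each array in turn. No called probe set changed sign. Utrn read -0.119 to 0.0134 without each array in turn, above 0 without Cmah KO mdx replicate 2. The tissue count of 17 was 0 without the animal block and 1 on probe sets that pass the filter in both tissues. It was 0 to 64 without each gastrocnemius array of these groups in turn, and heart arrays were not left out singly. The interaction and heart counts were 0 in every fit run. Of the list medians recomputed, 31 moved by more than the spread between arrays and 779 did not, and 34 changed sign, in 13 of the 45 lists. Those were the presynaptic (9 of 18 fits), slow fibre (6), B cell (4), T and NK cell (3), dystrophin axis, endothelial and fast fibre (2 each) lists and, in 1 fit each, the tendon, pericyte, cardiac, growth, heat shock and oxidative stress lists. Of the 17 lists with a median of at least 0.5 in size the cardiac one changed sign, to 0.85 without Cmah KO replicate 1; the causes were not tested. Dim values in Cmah KO muscle limit the size of 9 of the rises. Of these 9, Iqgap3 and Msr1 passed at a dimmer probe set, and their brightest read -0.11 and 2.31. Whether the choice of probe sets by signal affects the direction of the 9 was not tested.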
